A study of Mus musculus with 24 samples.

Results

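Ruxolitinib, an inhibitor of JAK1 and JAK2, was compared with vehicle in the skin of C3H/HeJ mice with alopecia areata (AA), a T cell-mediated loss of hair. The comparison used 6 of the 24 RNA-Seq libraries of the series, 3 from skin after ruxolitinib and 3 from skin after vehicle, and was chosen by these treatment labels. In all groups the disease had been passed to the mice by grafting alopecic C3H/HeJ skin or by transferring T cells. The methods give ruxolitinib systemically at 30 mg/kg, whereas the sample labels describe a topical 2% (w/w) ointment and call the comparison group untreated. The groups are named here as in the methods. The duration of ruxolitinib treatment and the age of the mice are not given in the sources used here. The labels do not say that libraries of a group came from separate mice. The p-values therefore measure only the spread between libraries within groups, pooled over all 24 libraries, and this spread may be technical.

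Cytokines that bind type I and type II receptors signal through receptor-bound Janus kinases, which phosphorylate STAT proteins that enter the nucleus and switch genes on. JAK1 and JAK2 serve the receptor for IFN-γ, JAK1 and TYK2 the receptor for type I interferons, and JAK1 and JAK3 the receptors that share the common γ chain (γc) and respond to IL-2, IL-7 and IL-15. In AA, CD8 T cells around the follicle make IFN-γ, and the follicle displays MHC class I that it normally lacks.

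The libraries held 20160688, 21631379 and 19296139 counts after ruxolitinib, and 21858670, 20730312 and 20676621 after vehicle. Skin markers were abundant throughout. Krt5, a basal keratin, stood at 3668 to 4470 CPM (counts scaled to library size) after ruxolitinib and at 5528 to 6150 CPM after vehicle. Col3a1, a dermal collagen, stood at 1733 to 2259 CPM after ruxolitinib and at 1200 to 1710 CPM after vehicle. On the log2 CPM scale, libraries of the same group correlated at 0.989 to 0.993 across genes and libraries of different groups at 0.894 to 0.925. Vehicle library 1 stood apart in hair genes, with a summed hair shaft keratin level of 3015 CPM against 1510 and 1267 CPM in vehicle libraries 2 and 3. Skeletal muscle genes moved with treatment. Their summed level was 37750 to 40660 CPM after ruxolitinib and 10510 to 13980 CPM after vehicle, and 25 of 30 were called higher and 1 lower. The part of muscle in the results that follow was not tested. Values of genes with near-identical copies, here Apol9b, H2-K1, Krt6a, Ccl21a, Hba-a1, Serpinb6e, Tcrg-C1, Tcrg-C2 and the keratin-associated proteins, depend on how shared reads were assigned.

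A gene was called when its adjusted p was below 0.05 in a fit of all 24 libraries, which share one estimate of the spread and include 3 libraries after JAK1i (INCB039110, a JAK1 inhibitor). Of 17770 genes tested, 9042 (50.9%) were called, 4200 (23.6%) higher after ruxolitinib and 4842 (27.2%) lower. The fold was at least 2 in 1701 of the genes that rose and in 1892 of those that fell. Large changes were mostly decreases, with 281 called genes below a log2 fold change of −4 and 22 above 4. The median over all genes was −0.005 and the quartiles were −0.41 and 0.40. When libraries were scaled by their totals alone, the median shifted to 0.11 and 5513 genes were called higher and 3612 lower, so that 60.4% of calls were increases, as against 46.4% in the fit reported here. Genes whose ruxolitinib and vehicle libraries did not overlap made up 68.7% of those tested. Skin was measured in bulk, so fewer cells of a type and less RNA per cell cannot be told apart.

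**Figure D1:**
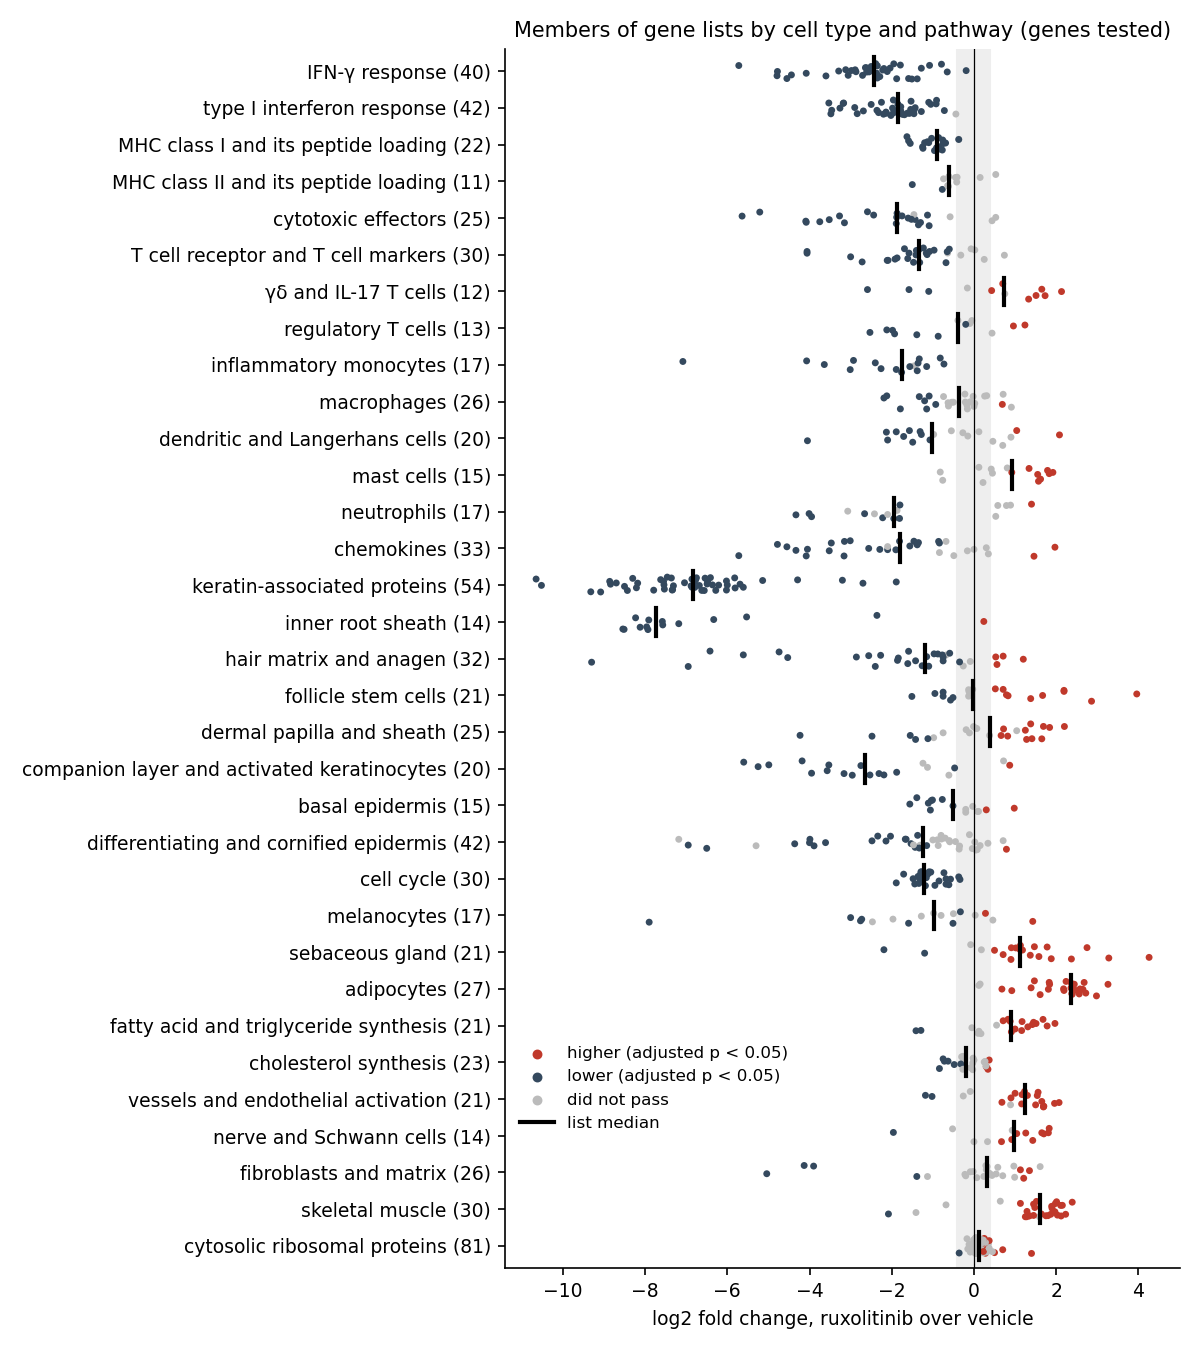
Log2 fold changes, ruxolitinib over vehicle, of the tested members of 33 gene lists, with the number tested in parentheses. Points are genes, the thick black mark is the list median, the grey band spans the quartiles of all genes, and genes without a count in a group are at their fitted values. The hair fibre lists lie farthest to the left, near −7, the interferon lists near −2, and the adipocyte list farthest to the right, near 2.4.

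The JAK pathway's own genes changed unevenly. Of 23 JAK, STAT and regulator genes, 14 were lower and 2 higher after ruxolitinib, with a median of −0.39. Scaling by library totals called 9 lower and 3 higher. Among the kinases, Jak2 fell to 73.5, 75.0 and 80.2 CPM after ruxolitinib, against 126, 123 and 124 CPM after vehicle (log2 fold change −0.70, SE 0.11, adjusted p = 3.64e-05). Jak3 fell by 0.39 on the log2 scale (SE 0.12, adjusted p = 0.00965), a call that was lost with scaling by library totals (−0.27). Jak1 stood at 222, 226 and 247 CPM after ruxolitinib and 247, 263 and 266 CPM after vehicle and was not called (adjusted p = 0.0817), although it was without ruxolitinib library 3 (−0.21). Tyk2 was not called either (log2 fold change −0.13, 95% interval −0.30 to 0.04).

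Of the transcription factors, Stat2, which carries the type I interferon signal and is itself induced by it, measured 79.6, 74.5 and 73.9 CPM after ruxolitinib and 294, 301 and 290 CPM after vehicle (log2 fold change −1.96, SE 0.08, adjusted p = 8.90e-13). Stat4, which acts downstream of IL-12, fell by 1.44, and Stat3, the mediator of gp130 cytokines, fell by 0.76. Stat5b, a mediator of IL-2 and growth hormone signals, was higher after ruxolitinib at 94.9, 91.1 and 89.2 CPM, against 68.8, 70.5 and 72.7 CPM after vehicle (log2 fold change 0.38, SE 0.10, adjusted p = 0.00458). Stat5a did not pass the test (log2 fold change 0.12, 95% interval −0.06 to 0.30).

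Feedback inhibitors also moved in both directions. Socs1, which blocks JAK activity at the IFN-γ receptor, fell to 12.4, 12.0 and 12.1 CPM after ruxolitinib, against 37.4, 29.8 and 28.2 CPM after vehicle (log2 fold change −1.38, SE 0.19, adjusted p = 5.50e-06). Usp18, a brake on the type I interferon receptor, fell by 1.46, and Cish, a STAT5 target, fell by 0.95. Socs5 fell by 0.94. Socs7 rose, with a log2 fold change of 0.64 (SE 0.14, adjusted p = 0.00074), while Socs2 did not pass (log2 fold change −0.21, adjusted p = 0.295).

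**Figure D2:**
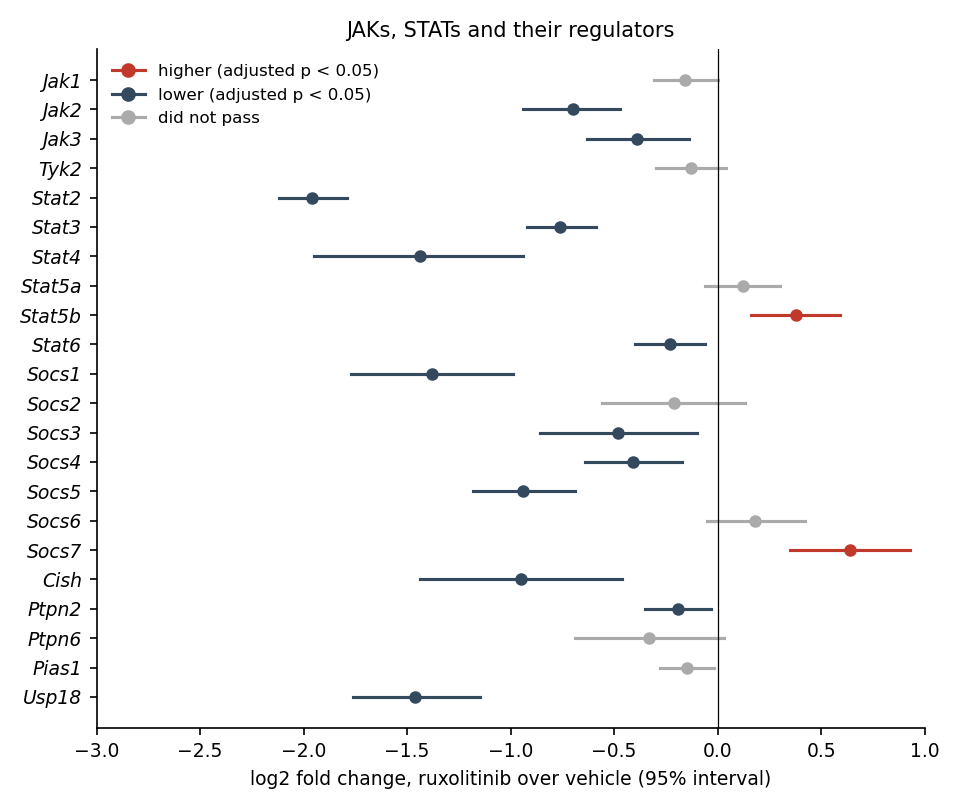
Log2 fold change, ruxolitinib over vehicle, with its 95% interval, for 22 of the 23 genes of JAKs, STATs and their regulators. Of those plotted, Stat2 (−1.96) lies farthest to the left, Socs7 (0.64) and Stat5b (0.38) lie to the right of 0, and Jak1 and Tyk2 did not pass the test.

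Receptors for γc cytokines fell. In the γc list, 8 of 13 genes were lower and 1 higher, with a median of −1.06. Il7 and Il15, which encode T cell survival cytokines, did not pass, with intervals of −0.09 to 0.59 for Il7 and −0.66 to 0.33 for Il15. Il21r, the IL-21 receptor, measured 2.00, 2.12 and 2.18 CPM after ruxolitinib and 19.5, 18.9 and 22.4 CPM after vehicle (log2 fold change −3.26, SE 0.24, adjusted p = 3.16e-09). Il2rb, the β chain shared by IL-2 and IL-15 receptors, fell by 1.91 and Il2ra, its α chain, fell by 1.39. Il4ra, the IL-4 and IL-13 receptor chain that keratinocytes also carry, fell to 117, 105 and 104 CPM after ruxolitinib, against 318, 333 and 335 CPM after vehicle (log2 fold change −1.60, SE 0.14, adjusted p = 2.23e-08). The listed gene that rose was Tslp, an epithelial cytokine that does not signal through the γc. Tslp measured 3.03, 2.77 and 3.16 CPM after ruxolitinib and 1.93, 1.39 and 1.57 CPM after vehicle (log2 fold change 0.87, SE 0.27, adjusted p = 0.0119). Its call was lost without vehicle library 2 (0.77).

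Along the IFN-γ axis, 10 of 15 genes were lower and 2 higher. Ifng itself measured 0.559, 0.433 and 0.388 CPM after ruxolitinib and 8.97, 7.55 and 7.24 CPM after vehicle (log2 fold change −4.09, SE 0.30, adjusted p = 3.17e-09). Tbx21, the transcription factor of type 1 T cells, fell by 2.44, and Il18rap, a chain of the IL-18 receptor, fell by 2.45. Il12b and Il27, made by myeloid cells, fell by 2.33 and 1.71. Il12rb2, the signalling chain of the IL-12 receptor, moved the other way, with 35.9, 36.5 and 37.0 CPM after ruxolitinib and 13.3, 11 and 9.59 CPM after vehicle (log2 fold change 1.69, SE 0.22, adjusted p = 2.96e-06). All ruxolitinib libraries lay above all vehicle libraries. Ifngr1, the ligand-binding chain of the IFN-γ receptor, was slightly higher (log2 fold change 0.32, adjusted p = 0.00555).

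Of 16 gp130 and oncostatin genes, 4 were higher and 6 lower, and of 10 receptors linked to JAK2, 3 were higher and 2 lower. These shares are near those over all genes tested, 23.6% higher and 27.2% lower, so the counts set neither list apart, and single members are described here. Il31ra, a chain of the receptor for the itch cytokine IL-31, rose to 38.5, 37.4 and 39.5 CPM after ruxolitinib, against 3.91, 3.58 and 4.80 CPM after vehicle (log2 fold change 3.23, SE 0.24, adjusted p = 3.41e-09). Il6st, which encodes gp130 itself, was also higher (log2 fold change 0.67, SE 0.12, adjusted p = 0.000168). Cntfr, the ciliary neurotrophic factor receptor, fell by 3.36 and Osm, the cytokine oncostatin M, fell by 1.90. Among the receptors linked to JAK2, Ghr, the growth hormone receptor, measured 210, 226 and 236 CPM after ruxolitinib and 88.6, 89.0 and 96.9 CPM after vehicle (log2 fold change 1.29, SE 0.13, adjusted p = 1.20e-07), and Prlr, the prolactin receptor, rose with a log2 fold change of 1.78 (SE 0.14, adjusted p = 1.03e-08). Csf3r, the receptor for the neutrophil growth factor G-CSF, fell by 1.80.

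Genes induced by interferons fell together. All 40 genes of the IFN-γ response were lower after ruxolitinib, with a median of −2.42 and a range of −5.72 to −0.19. Their summed level was 1185 to 1224 CPM after ruxolitinib and 6386 to 6882 CPM after vehicle. The fit of the 6 libraries alone and scaling by library totals each called 39 of the 40 lower. The steepest falls were in the chemokines that draw CXCR3-bearing T cells and in the lipid-binding Apol9 genes. Cxcl11 measured 2.75, 2.34 and 1.02 CPM after ruxolitinib and 102, 104 and 120 CPM after vehicle (log2 fold change −5.72, SE 0.25, adjusted p = 2.35e-12), and Cxcl9 fell by 4.78. Apol9b measured 3.12, 2.21 and 2.52 CPM after ruxolitinib and 69.4, 78.3 and 70.3 CPM after vehicle (log2 fold change −4.79, SE 0.20, adjusted p = 1.06e-12). Igtp, an immunity-related GTPase, fell by 3.12 and Irf1, a transcription factor made at once upon IFN-γ, fell by 1.59. Ido1, which breaks down tryptophan, fell by 3.29 and Cd274, which encodes PD-L1, fell by 1.51. The smallest change was that of Ptpn2, a phosphatase that acts on JAK1, whose log2 fold change of −0.19 (adjusted p = 0.0408) was not called without ruxolitinib library 1 (−0.15) or 3 (−0.20) or vehicle library 1 (−0.13) or 3 (−0.20).

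In the type I interferon list 41 of 42 genes were lower, with a median of −1.85, and no member rose. Isg15, a ubiquitin-like modifier, measured 9.60, 9.40 and 9.85 CPM after ruxolitinib and 114, 108 and 95.1 CPM after vehicle (log2 fold change −3.46, SE 0.20, adjusted p = 1.44e-10). Ifit1, an RNA-binding antiviral protein, fell by 2.84, Oas3, an RNA sensor, fell by 3.53 and Parp9, an ADP-ribosyltransferase, fell by 1.74. The member that did not pass was Ifi27l2a, at 113, 145 and 125 CPM after ruxolitinib and 170, 177 and 173 CPM after vehicle (log2 fold change −0.44, adjusted p = 0.17), although its libraries did not overlap and it was called in the fit of these 6 libraries alone (−0.42).

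The promoters of 6 of these genes are shown because they carry the letters that STAT and IRF factors are known to recognise. Each runs over the 250 bases before the gene start, as annotated by RefSeq on GRCm38.p6, on the strand of the gene. Capitals mark matches to GAAA, any 2 bases and again GAAA, a form of the interferon-stimulated response element (ISRE), or to TTCNNNGAA, a form of the gamma-activated sequence (GAS), sought on both strands. Cxcl10 is at chr5:92348890-92349139 (minus strand), Irf1 at chr11:53769764-53770013 (plus), Igtp at chr11:58199306-58199555 (plus), Isg15 at chr4:156200819-156201068 (minus), Ifit1 at chr19:34640639-34640888 (plus) and Apol9b at chr15:77728822-77729071 (plus).
Cxcl10: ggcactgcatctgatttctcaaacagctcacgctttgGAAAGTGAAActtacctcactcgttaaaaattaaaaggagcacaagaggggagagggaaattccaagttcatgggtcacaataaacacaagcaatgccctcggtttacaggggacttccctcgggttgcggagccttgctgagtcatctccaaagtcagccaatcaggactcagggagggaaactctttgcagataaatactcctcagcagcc
Irf1: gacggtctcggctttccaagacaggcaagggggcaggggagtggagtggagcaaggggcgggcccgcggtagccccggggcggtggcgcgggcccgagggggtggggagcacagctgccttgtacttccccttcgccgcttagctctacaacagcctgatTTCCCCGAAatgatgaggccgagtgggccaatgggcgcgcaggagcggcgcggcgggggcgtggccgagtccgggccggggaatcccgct
Igtp: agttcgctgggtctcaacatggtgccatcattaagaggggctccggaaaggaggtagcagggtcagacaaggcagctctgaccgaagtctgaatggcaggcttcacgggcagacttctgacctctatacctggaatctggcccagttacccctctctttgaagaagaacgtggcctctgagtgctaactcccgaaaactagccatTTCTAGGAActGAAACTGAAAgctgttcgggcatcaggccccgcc
Isg15: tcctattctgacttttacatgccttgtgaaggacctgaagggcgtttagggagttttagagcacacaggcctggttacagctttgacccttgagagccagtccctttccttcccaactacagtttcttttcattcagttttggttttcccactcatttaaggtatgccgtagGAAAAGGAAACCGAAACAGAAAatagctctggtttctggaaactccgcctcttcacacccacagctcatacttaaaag
Ifit1: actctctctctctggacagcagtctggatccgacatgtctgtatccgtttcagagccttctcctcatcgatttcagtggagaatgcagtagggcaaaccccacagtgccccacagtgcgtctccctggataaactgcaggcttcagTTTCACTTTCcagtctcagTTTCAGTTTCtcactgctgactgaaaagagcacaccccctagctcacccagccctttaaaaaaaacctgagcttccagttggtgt
Apol9b: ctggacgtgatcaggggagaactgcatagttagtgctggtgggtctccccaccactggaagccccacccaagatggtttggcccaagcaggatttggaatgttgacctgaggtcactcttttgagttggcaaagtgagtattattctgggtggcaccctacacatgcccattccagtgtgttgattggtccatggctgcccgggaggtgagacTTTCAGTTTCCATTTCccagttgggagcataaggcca

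Counted from the gene start, Irf1 has a GAS match at −90, and Igtp has a GAS match at −45 and an ISRE match at −34. Isg15 has overlapping ISRE matches at −78, −72 and −66, and Apol9b at −37 and −31. Ifit1 has separate ISRE matches at −104 and −85, and Cxcl10 has an ISRE match at −213. Genes were counted when any of their promoters, here including the 50 bases after the start, held a match. ISRE matches were present in 14 of the 27 genes of the IFN-γ list with a RefSeq promoter (51.9%). In the type I list they were present in 17 of 31 (54.8%). The shares were 507 of 13138 over all genes tested (3.86%) and 1079 of 27025 over all genes with a promoter (3.99%). A GAS match was present in 10 of 27 (37.0%) and in 6 of 31 (19.4%) of the same lists, beside 8.43% of all genes tested and 9.55% of all genes with a promoter. A match describes letters and does not show that a factor bound.

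**Figure D3:**
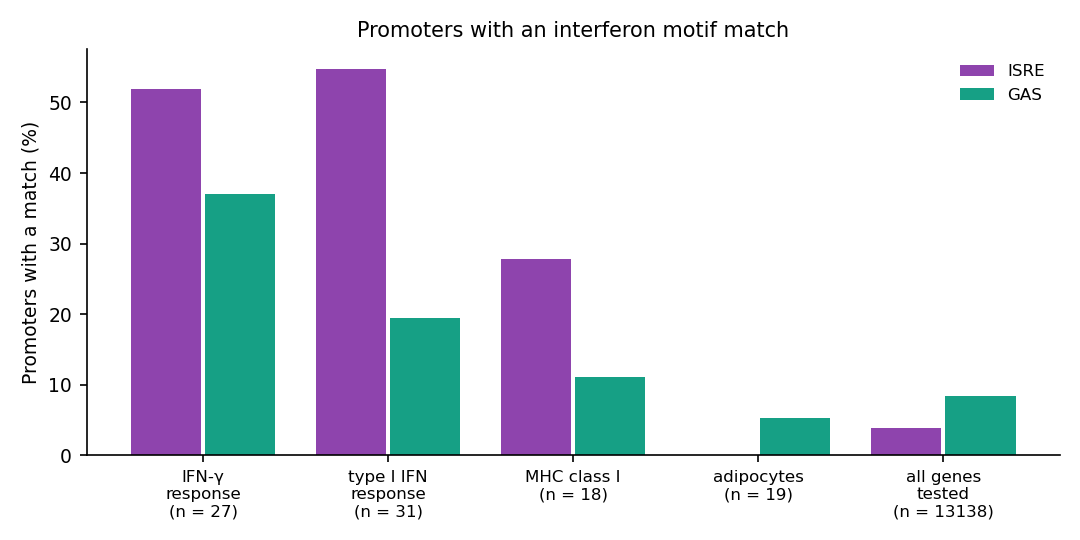
Share of genes (%) with a match to the ISRE or GAS letters in at least 1 of their promoters, by gene list. The number of genes that have a RefSeq promoter is under each name. ISRE matches were present in 51.9% of the IFN-γ list and 3.86% of all genes tested, and in no gene of the adipocyte list.

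Nearly all MHC class I genes fell, while few class II genes passed the test in the fit of all 24 libraries. Of 22 class I and peptide loading genes, 21 were lower, with a median of −0.91. H2-Q10 did not pass (log2 fold change −0.37, adjusted p = 0.142) and was called in the fit of the 6 libraries alone (−0.35). Tap1, a subunit of the peptide transporter, measured 194, 175 and 155 CPM after ruxolitinib and 523, 558 and 543 CPM after vehicle (log2 fold change −1.63, SE 0.10, adjusted p = 4.76e-10). H2-K1, a classical class I heavy chain, fell by 0.84 and Nlrc5, the class I transactivator, fell by 1.25. Of 11 class II genes 2 were lower, a share below the 27.2% over all genes tested, with a median of −0.61. The fit of the 6 libraries alone, like that without JAK1i library 3, called 8 lower. Ciita, the class II transactivator, measured 44.4, 43.7 and 45.0 CPM after ruxolitinib and 126, 115 and 136 CPM after vehicle (log2 fold change −1.50, SE 0.37, adjusted p = 0.00237). H2-DMa, which helps load class II, had a log2 fold change of −0.77, called no longer without ruxolitinib library 1 (−0.74) or 2 (−0.76) or vehicle library 3 (−0.71). Cd74, the invariant chain, stood at 1019, 1246 and 1328 CPM after ruxolitinib and 1776, 1763 and 2043 CPM after vehicle. These did not overlap, but the gene did not pass (log2 fold change −0.64, 95% interval −1.62 to 0.35, adjusted p = 0.273).

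Most general T cell genes fell, by unequal amounts. Of 30 general T cell genes 24 were lower and none higher, with a median of −1.33. CD8 chains fell most. Cd8a measured 5.50, 6.76 and 7.57 CPM after ruxolitinib and 97.5, 111 and 122 CPM after vehicle (log2 fold change −4.06, SE 0.30, adjusted p = 2.94e-09), and Cd8b1 1.12, 2.21 and 2.82 CPM after ruxolitinib and 29.5, 35.2 and 37.6 CPM after vehicle (log2 fold change −4.06, SE 0.30). Trac, the T cell receptor α constant region, fell by 2.72 and Cd3e, a signalling chain of the receptor, fell by 1.14. Cd4 stood at 6.67, 8.49 and 10 CPM after ruxolitinib and 7.82, 5.91 and 7.39 CPM after vehicle, which overlap (log2 fold change 0.25, 95% interval −0.07 to 0.57). Without ruxolitinib library 1 Cd4 was called higher (0.39), as the 1 member of the list. Foxp3, the factor of regulatory T cells, stood at 1.45, 1.73 and 1.50 CPM after ruxolitinib and 1.56, 1.39 and 2.06 CPM after vehicle and did not pass either (log2 fold change −0.10, 95% interval −0.71 to 0.52).

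Genes of γδ T cells mostly rose. Of 12 genes linked to γδ and IL-17-producing T cells, 7 were higher and 3 lower, with a median of 0.72. Trdc, the δ constant region, measured 15.9, 17.3 and 17.3 CPM after ruxolitinib and 3.96, 4.72 and 6.56 CPM after vehicle (log2 fold change 1.73, SE 0.34, adjusted p = 0.00032). Trdv4, a δ variable segment, and Cd163l1, a scavenger receptor of γδ T cells, rose with log2 fold changes of 1.65 and 1.51. The γ chain constant regions were split, with Tcrg-C2 at 1.77, 1.65 and 1.89 CPM after ruxolitinib and 9.94, 10.4 and 11.8 CPM after vehicle (log2 fold change −2.59, SE 0.31, adjusted p = 1.23e-06), Tcrg-C4 lower (−1.58), and Tcrg-C1 not called (log2 fold change 0.75, adjusted p = 0.0655). The last was called in the fit of the 6 libraries alone (0.77).

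Among cytotoxic effectors 21 of 25 were lower and none higher, with a median of −1.87. Gzmb, a granule protease, measured 1.26, 1.52 and 1.94 CPM after ruxolitinib and 84.5, 80.0 and 70.6 CPM after vehicle (log2 fold change −5.64, SE 0.30, adjusted p = 4.02e-11), and Gzma fell by 5.21. Prf1, which encodes perforin, fell by 1.43 and Klrk1, which encodes NKG2D, fell by 1.75. Gzmc did not pass, at 11.8, 14.2 and 16.6 CPM after ruxolitinib and 19.8, 19.2 and 25 CPM after vehicle (log2 fold change −0.58, adjusted p = 0.137), but was called in the fit of the 6 libraries alone (−0.57). Of 12 resident memory T cell genes 10 fell, among them Itgae, which encodes CD103 (−2.32), Cxcr6 (−2.15) and Cd69 (−1.76). Nr4a1, an immediate early gene of many cell types, was the member that rose (log2 fold change 1.15, SE 0.32, adjusted p = 0.00526). In the checkpoint list 14 of 23 fell, led by Pdcd1lg2, which encodes PD-L2, with 0.886, 1.13 and 1.07 CPM after ruxolitinib and 22.4, 16.5 and 16.2 CPM after vehicle (log2 fold change −4.15, SE 0.33). Cd226, an activating receptor, fell by 3.52 and Pdcd1 fell by 3.51.

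Regulatory T cell genes were divided, with 7 of 13 lower and 2 higher. Ikzf2, which encodes Helios, and Nrp1, a receptor that vessels also carry, rose with log2 fold changes of 1.24 (SE 0.14, adjusted p = 7.67e-07) and 0.96 (SE 0.14, adjusted p = 1.90e-05). Ikzf2 measured 73.1, 76.0 and 78.0 CPM after ruxolitinib and 27.3, 34.7 and 34.4 CPM after vehicle, far above Foxp3. Areg, a growth factor of tissue regulatory T cells and of keratinocytes, fell by 2.53, Ccr8, a skin-homing receptor, fell by 2.12, and Il10, a suppressive cytokine, fell by 1.93.

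**Figure D4:**
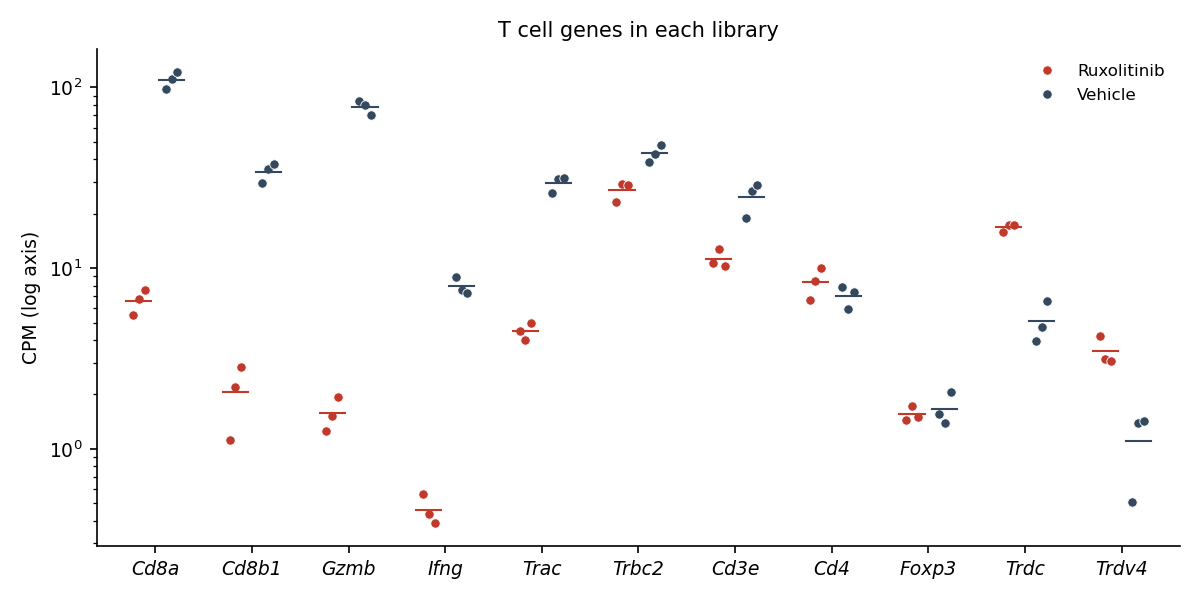
CPM (log axis) of T cell genes in the 3 ruxolitinib libraries (red, left) and the 3 vehicle libraries (blue, right), with lines at the means. Cd8a, Cd8b1, Gzmb and Ifng lie far lower after ruxolitinib, Cd4 and Foxp3 overlap, and Trdc is higher at 15.9 to 17.3 CPM against 3.96 to 6.56 CPM.

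Of 9 NK cell genes 6 fell, among them Ncr1, a receptor of NK cells, at 1.03, 1.26 and 1.21 CPM after ruxolitinib and 3.27, 3.63 and 5.09 CPM after vehicle (log2 fold change −1.77, SE 0.34, adjusted p = 0.000252). Leaving out ruxolitinib library 2 or 3 or vehicle library 1 left 3 NK genes called, and leaving out vehicle library 3 left 2. Of 15 B and plasma cell genes 7 fell, whereas the antibody genes Ighm, Igkc and Jchain did not pass. Igkc ranged from 44.1 to 108 CPM after ruxolitinib and from 27.7 to 93.5 CPM after vehicle.

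Genes of inflammatory monocytes fell. Of 17 genes of inflammatory monocytes, 16 fell, with a median of −1.76. Ccl2, the chief monocyte chemokine, measured 6.53, 6.98 and 7.14 CPM after ruxolitinib and 71.1, 47.7 and 47.7 CPM after vehicle (log2 fold change −3.01, SE 0.30, adjusted p = 1.41e-07), and its receptor Ccr2 fell by 2.40. Fcgr4, an activating antibody receptor, fell by 3.64 and Nos2, which makes nitric oxide, fell by 2.93. Of 26 macrophage genes 8 fell, a share near the 27.2% over all genes tested, and 1 rose, with a median of −0.36. The fit of the 6 libraries alone called 13 lower and 4 higher. Ctss, a lysosomal protease that trims the class II invariant chain, fell to 85.2, 104 and 124 CPM after ruxolitinib, against 497, 413 and 454 CPM after vehicle (log2 fold change −2.12, SE 0.33, adjusted p = 3.17e-05). The scavenger receptors of resident macrophages did not pass, with Mrc1 at −0.22 (95% interval −1.06 to 0.61) and Cd163 at 0.02 (95% interval −0.95 to 0.99). Cbr2, a carbonyl reductase, was the member that rose (log2 fold change 0.69, adjusted p = 0.000153).

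Of 20 dendritic cell genes 10 fell and 2 rose, with a median of −1.02, and the fit of the 6 libraries alone, like that without JAK1i library 3, called 5 higher. Itgax, which encodes CD11c, fell by 2.13 and Ly75, an antigen uptake receptor, fell by 1.71. Cd209a, a lectin of dermal dendritic cells, rose to 19.4, 27.2 and 32.1 CPM after ruxolitinib, against 5.24, 5.12 and 8.22 CPM after vehicle (log2 fold change 2.08, SE 0.44, adjusted p = 0.00058). Cd207, which encodes langerin, did not pass (log2 fold change 0.70, adjusted p = 0.228), but was called in the fit of the 6 libraries alone (0.72). Epcam, carried by Langerhans cells but also by follicle keratinocytes, fell by 1.57.

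Mast cell genes went the other way. Of 15, 8 rose and none fell, with a median of 0.92. Mcpt4, a chymase, measured 111, 156 and 173 CPM after ruxolitinib and 43.2, 34.5 and 46.4 CPM after vehicle (log2 fold change 1.83, SE 0.24, adjusted p = 3.55e-06). Mrgprb2, a receptor of connective tissue mast cells, rose with 1.92 and Cpa3, a carboxypeptidase, with 1.79. Kit, the mast cell growth factor receptor that melanocytes share, did not pass (log2 fold change 0.12, 95% interval −0.41 to 0.66).

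Among neutrophil genes 8 of 17 fell and 1 rose, with a median of −1.95. Lcn2, an iron-binding protein that inflamed keratinocytes also make, measured 3.54, 3.03 and 4.03 CPM after ruxolitinib and 55.2, 63.7 and 51.4 CPM after vehicle (log2 fold change −4.01, SE 0.32, adjusted p = 8.43e-09). Cxcr2, the receptor for neutrophil chemokines, fell by 1.95. Il1r2, a decoy receptor for IL-1, was the member that rose (log2 fold change 1.40, SE 0.14, adjusted p = 1.08e-07).

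Of 33 chemokines 23 fell and 2 rose, with a median of −1.81. Beyond those above, Ccl5, a T cell chemokine, fell by 3.52 and Ccl22, a ligand of CCR4, fell by 2.10. Ccl21a, the chemokine of lymphatic vessels, rose to 47.7, 57.3 and 60.1 CPM after ruxolitinib, against 12.9, 11.7 and 17.7 CPM after vehicle (log2 fold change 1.97, SE 0.63, adjusted p = 0.0133), a call lost without vehicle library 2 (1.85). Pf4, which platelets and macrophages make, rose with 1.46. Of 22 chemokine receptors 12 fell, among them Ccr1 (−3.76), and 5 rose, the second a share near the 23.6% over all genes tested. The 5 were Ccr4 and the atypical receptors Ackr1, Ackr2, Ackr3 and Ackr4, which take up chemokines without signalling for migration. Ackr2 measured 25.7, 24.8 and 25.9 CPM after ruxolitinib and 6.44, 6.41 and 7.93 CPM after vehicle (log2 fold change 1.88, SE 0.13, adjusted p = 1.33e-09).

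The hair follicle lists showed the deepest falls. All 15 hair shaft keratins were lower after ruxolitinib, with a median of −7.13. Their summed level was 28.53, 20.75 and 10.44 CPM after ruxolitinib and 3015, 1510 and 1267 CPM after vehicle. Of 14 inner root sheath genes 13 fell, with a median of −7.74. Krt71, a keratin of the inner root sheath, measured 9.60, 7.71 and 3.93 CPM after ruxolitinib and 3592, 2169 and 2148 CPM after vehicle (log2 fold change −8.54, SE 1.03, adjusted p = 1.51e-06), and Tchh, which encodes trichohyalin, fell by 7.58. Gata3, a sheath factor that other epithelial cells and T cells express, was the member that rose (log2 fold change 0.24, adjusted p = 0.0485). It was no longer called when any library other than ruxolitinib library 3 was left out (0.19 to 0.25). All 54 keratin-associated proteins fell, with a median of −6.83, and 2 of them had no count after ruxolitinib. Setting those at a bound of 3 counts over the group did not move the median.

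The genes that build the growing follicle also fell. Of 32 hair matrix and anagen genes 25 were lower and 4 higher. Shh, the signal that drives follicle growth, measured 0.186, 0.260 and 0.0971 CPM after ruxolitinib and 13.3, 8.05 and 6.51 CPM after vehicle (log2 fold change −5.61, SE 0.73, adjusted p = 3.38e-06). Wnt11, a secreted signal, fell by 2.56 and Foxq1, a factor needed for the hair medulla, fell by 1.86. The members that rose were Bmp2 (1.20), Axin2 (0.56), Lhx2 (0.71) and Bmp4 (0.53), of which the last 2 were not called without vehicle library 2 (0.71 for Lhx2 and 0.44 for Bmp4). Lhx2 was also lost without ruxolitinib library 1 (0.57) or vehicle library 3 (0.67). All 30 cell cycle genes fell, with a median of −1.21, among them Mki67, which measured 78.5, 81.8 and 79.9 CPM after ruxolitinib and 224, 206 and 176 CPM after vehicle (log2 fold change −1.34, SE 0.18, adjusted p = 6.77e-06).

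Genes of follicle stem cells moved in both directions, with a share lower near the 27.2% over all genes tested. Of 21, 10 were higher, beside 23.6% of all genes tested, and 6 lower, with a median of −0.03. Fgf18, a growth factor of the telogen bulge, rose to 18.4, 20.3 and 16.8 CPM after ruxolitinib, against 1.56, 0.497 and 1.47 CPM after vehicle (log2 fold change 3.96, SE 0.37, adjusted p = 5.90e-08). Krt15, a bulge keratin, rose to 3070, 2966 and 2967 CPM after ruxolitinib, against 588, 670 and 711 CPM after vehicle (log2 fold change 2.19, SE 0.20, adjusted p = 6.54e-08). Lgr6, a marker of isthmus stem cells, rose with 1.67, whereas Lgr5 fell by 0.75, Sox9 fell by 0.95 and Runx1 fell by 1.51. Of 33 FGFs, BMPs and their antagonists 17 rose and 8 fell, the second a share near that over all genes. Grem1, a BMP antagonist of the dermis, had a log2 fold change of 2.86 (SE 0.39, adjusted p = 7.15e-06), and Fgf5, the growth factor that ends anagen, fell by 2.03. Of 25 dermal papilla and sheath genes 11 rose and 5 fell (3 without ruxolitinib library 2 or 3 or vehicle library 1), with Notum, a WNT-inactivating enzyme, at 21.4, 20.1 and 19.1 CPM after ruxolitinib and 5.66, 4.37 and 3.13 CPM after vehicle (log2 fold change 2.20, SE 0.44, adjusted p = 0.000369).

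Pigment genes followed the growing follicle only in part. Of 17 melanocyte genes 7 fell and 2 rose, and 4 fell without ruxolitinib library 1 and 3 without vehicle library 1, whereas the fit of the 6 libraries alone called 11 lower. Trpm1, an ion channel of pigment cells, fell by 2.73 and was not called without vehicle library 1 (−1.83). Sox10, the melanocyte and Schwann cell factor, rose with a log2 fold change of 1.43 (SE 0.25, adjusted p = 8.65e-05). Dct, an enzyme of melanin synthesis, stood at 44.9, 42.3 and 35.6 CPM after ruxolitinib and 49.9, 22.5 and 16.8 CPM after vehicle and did not pass. Vehicle library 1 was again the highest for Dct.

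**Figure D5:**
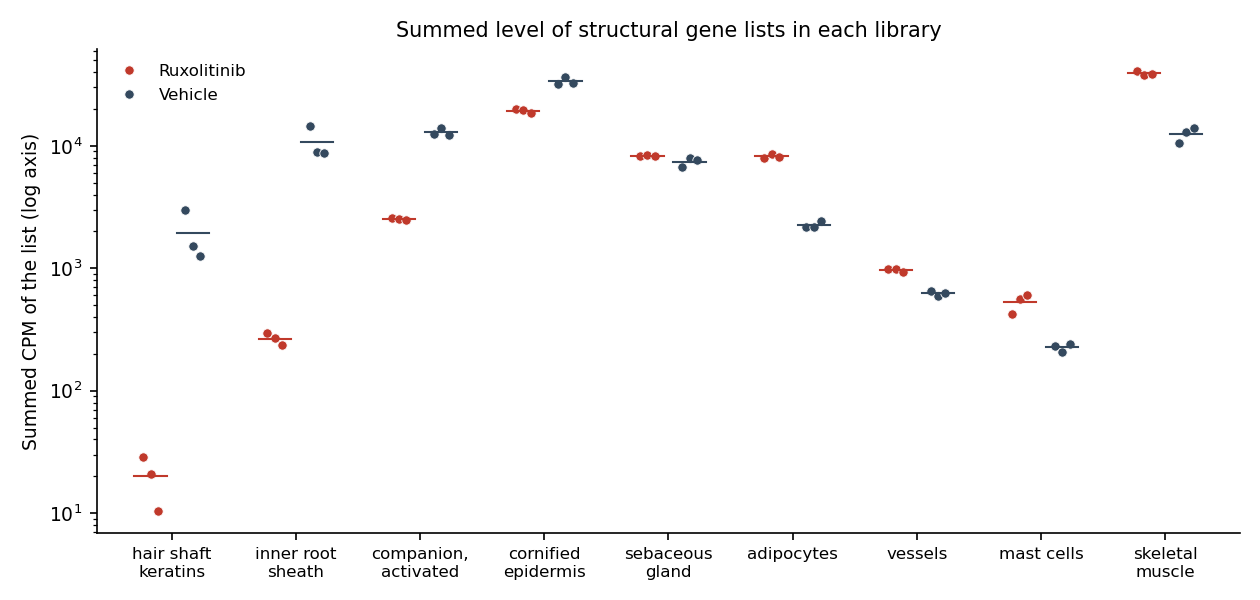
Summed CPM (log axis) of 9 lists in the 3 ruxolitinib libraries (red, left) and the 3 vehicle libraries (blue, right), with lines at the means. Hair shaft keratins stand at 10.44 to 28.53 CPM after ruxolitinib and 1267 to 3015 CPM after vehicle, whereas adipocyte, mast cell, vessel and skeletal muscle lists are higher after ruxolitinib.

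The epidermis changed in its activated and barrier genes. Of 20 genes of the companion layer and of activated keratinocytes, 15 fell and 1 rose, with a median of −2.64, and none rose without vehicle library 2. Krt6a, a keratin of the companion layer and of stressed epidermis, measured 247, 222 and 209 CPM after ruxolitinib and 2081, 2102 and 1862 CPM after vehicle (log2 fold change −3.16, SE 0.31, adjusted p = 1.20e-07). Slpi, a protease inhibitor of inflamed epithelium, fell by 3.95 and Defb14, an antimicrobial defensin, fell by 2.75. Of 42 genes of the differentiating epidermis 18 fell and 1 rose. The fit of the 6 libraries alone called 30 lower and that without JAK1i library 3 called 28. Flg, which encodes filaggrin, fell to 119, 102 and 82.3 CPM after ruxolitinib, against 1894, 1602 and 1321 CPM after vehicle (log2 fold change −3.99, SE 0.61, adjusted p = 2.17e-05). Its relative Flg2 did not pass (log2 fold change 0.15, 95% interval −1.22 to 1.53), nor did the suprabasal keratin Krt10 (−0.70, 95% interval −1.63 to 0.22), which was called with the 6 libraries alone (−0.68). Tgm5, an epidermal transglutaminase, rose with 0.79. Of 20 epidermal proteases and inhibitors 12 fell, led by Klk6, a kallikrein, with 10.7, 10.9 and 9.37 CPM after ruxolitinib and 401, 512 and 421 CPM after vehicle (log2 fold change −5.43, SE 0.39, adjusted p = 2.31e-09).

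In the basal layer 8 of 15 genes fell and 2 rose (1 when any library other than ruxolitinib library 3 was left out). Krt14 fell by 1.11 and Cdh3, which encodes P-cadherin, fell by 1.56. Dst, which encodes the hemidesmosome plakin BPAG1, rose to 411, 387 and 388 CPM after ruxolitinib, against 177, 204 and 221 CPM after vehicle (log2 fold change 0.98, SE 0.17, adjusted p = 8.63e-05).

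Genes of sebaceous glands and fat rose. Of 21 sebaceous gland genes 17 were higher and 2 lower, with a median of 1.13. Scd3, a desaturase of mouse sebocytes, measured 395, 406 and 465 CPM after ruxolitinib and 18.9, 22.5 and 24.7 CPM after vehicle (log2 fold change 4.26, SE 0.42, adjusted p = 1.28e-07). Fa2h, which hydroxylates fatty acids, rose with 1.88 and Awat2, a wax synthase, with 2.75. The members that fell, Krt79 (−2.19) and Fabp5 (−1.20), are also expressed in the upper follicle and the epidermis. Of 27 adipocyte genes 25 rose and none fell, with a median of 2.36. Adipoq, which encodes adiponectin, measured 243, 287 and 274 CPM after ruxolitinib and 31.6, 29.5 and 41.1 CPM after vehicle (log2 fold change 2.98, SE 0.33, adjusted p = 4.70e-07). Pck1, an enzyme of glyceride synthesis in fat, had a log2 fold change of 3.26 and Pparg, the regulator of fat cells and sebocytes, 2.37. Cebpa and Dgat2 did not pass (log2 fold changes of 0.15 and 0.12). Of 21 fatty acid and triglyceride genes 14 rose and 2 fell, while in cholesterol synthesis 3 of 23 rose and 6 fell, the second a share near that over all genes, with a median of −0.20. The fit of the 6 libraries alone called 12 cholesterol genes lower, and leaving out ruxolitinib library 3 or vehicle library 2 left 1 called higher.

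Vessel genes rose, 16 of 21 being higher and 2 lower, with a median of 1.23. Kdr, the main VEGF receptor, measured 52.2, 51.5 and 49.8 CPM after ruxolitinib and 14.4, 16.5 and 16.2 CPM after vehicle (log2 fold change 1.70, SE 0.21, adjusted p = 2.01e-06), and the pericyte gene Rgs5 rose with 2.07. The genes that fell were the adhesion molecules of activated endothelium, Vcam1 (−1.18) and Icam1 (−1.02). Of 14 nerve and Schwann cell genes 9 rose. Egr2, a Schwann cell factor that T cells and hair follicles also express, fell by 1.96.

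Connective tissue gave no common direction. Of 42 collagens 9 rose and 10 fell, shares near the 23.6% higher and 27.2% lower over all genes tested. These counts do not set the collagens apart. The fit of the 6 libraries alone called 14 collagens higher and 13 lower. Of 26 fibroblast and matrix genes 3 rose and 4 fell, and the fit of the 6 libraries alone called 14 higher and 6 lower, and that without JAK1i library 3 called 11 higher. None of the fibroblast list rose without vehicle library 2, and 1 rose without ruxolitinib library 2 or 3 or vehicle library 1 or 3. The fibrillar collagen Col1a1 did not pass (log2 fold change 0.30, 95% interval −0.83 to 1.44). Mmp13, a collagenase, measured 0.979, 1.26 and 1.12 CPM after ruxolitinib and 44.5, 32.6 and 34.0 CPM after vehicle (log2 fold change −5.04, SE 0.38, adjusted p = 3.50e-09). Timp1, an inhibitor of metalloproteinases, fell by 4.13. Of 81 respiratory chain genes, which skeletal muscle expresses strongly, 24 rose, a share near the 23.6% over all genes tested, and none fell. Leaving out any 1 of the 6 libraries other than ruxolitinib library 1 left 13 or 14 called. The fit of the 6 libraries alone called 62 higher, that without JAK1i library 3 called 60 and scaling by library totals 49. Among muscle genes, Pvalb, a calcium buffer of fast fibres, measured 708, 722 and 811 CPM after ruxolitinib and 109, 142 and 176 CPM after vehicle, while Tnni1, a troponin of slow fibres, had a log2 fold change of −2.08 that was not called without ruxolitinib library 2 (−2.04) or 3 (−1.91) or vehicle library 1 (−1.66) or 2 (−2.08). The haemoglobin genes did not pass, with Hba-a1 at a log2 fold change of −0.21.

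Among genes with a mean log2 CPM of at least 1, the largest increases came mostly from genes outside the lists. Hamp2, of the hepcidin family, rose to 36.2, 37.4 and 41.9 CPM after ruxolitinib, against 0.598, 0.596 and 0.489 CPM after vehicle (log2 fold change 6.08, SE 0.64, adjusted p = 3.06e-07). Slc26a7, an anion exchanger, rose to 14.8, 16.9 and 17.6 CPM after ruxolitinib, against 0.460, 0.298 and 0.930 CPM after vehicle (log2 fold change 4.85, SE 0.38). Wfdc3, which carries a protease inhibitor domain, rose with 4.64, Serpinb6e with 3.95, Adcy1, an adenylate cyclase, with 3.83, Serpina3b with 3.61, Ifitm6 with 3.46 and Krt24, a type I keratin, with 3.31. Ifitm6 belongs to a family of interferon-induced membrane proteins and measured 17.8, 16.2 and 19.3 CPM after ruxolitinib and 1.33, 1.39 and 2.10 CPM after vehicle. The ranking took only called genes whose ruxolitinib and vehicle libraries did not overlap.

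Under the same limits, the largest decreases were mostly in the hair lists. The largest was that of Lyg2, of the goose-type lysozyme family, with 0.0932, 0.0433 and 0.0485 CPM after ruxolitinib and 90.7, 47.8 and 42.2 CPM after vehicle, 4 counts against 3795 over the groups (log2 fold change −9.80, SE 1.12, adjusted p = 7.87e-07). Outside the hair lists it was followed by Gm4553 (−9.10), Fam26d (−8.35), Crnn, which encodes the epidermal protein cornulin (−7.83), Gm11567 (−7.57) and Vsig8, a membrane protein of the hair fibre (−7.45). Crnn measured 0.653, 0.650 and 0.243 CPM after ruxolitinib and 163, 97.2 and 99.6 CPM after vehicle. For each of these genes vehicle library 1 was the highest, as in the hair lists. Genes outside the hair lists can still belong to hair, as Vsig8 does, and Gm4553 and Gm11567 carry only provisional names.

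Ruxolitinib skin was also set against skin after other inhibitors in the same fit. At the same dose in the methods and in the labels, 66 genes (0.371% of those tested) differed from tofacitinib, an inhibitor of several JAKs, 42 (0.236%) higher and 24 (0.135%) lower after ruxolitinib. The count was 2, 8 and 29 without ruxolitinib libraries 1, 2 and 3 and 248, 3 and 3 without tofacitinib libraries 1, 2 and 3. No gene of the IFN-γ, type I interferon or MHC class I lists was called between ruxolitinib and tofacitinib skin. With 0.371% of all genes called, this absence does not set these lists apart. From JAK3i (PF-06651600), given at 30 mg/kg as well in the methods, 6487 genes (36.5%) differed, 19% of those tested being higher and 17.5% lower after ruxolitinib. Of 42 genes of the differentiating epidermis 36 were higher after ruxolitinib than after JAK3i, with a median of 3.52, of 30 T cell genes 24 were higher (1.23), and of 26 macrophage genes 21 were lower (−1.74). In the same comparison 14 of 27 adipocyte genes were lower after ruxolitinib. From JAK1i 5800 genes (32.6%) differed, 17.4% of those tested being higher and 15.2% lower after ruxolitinib. The methods give JAK1i at another dose, 50 mg/kg, whereas the labels give all inhibitors the same 2% ointment. If the methods hold, inhibitor and dose cannot be told apart here. JAK1i and JAK3i libraries are labelled as in the deposited counts, from which another deposited set of values differs, as given below. Without JAK1i library 3 the count was 9493, without JAK1i libraries 1 and 2 it was 3334 and 3407, and the fit of these 2 groups alone called 4.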

How the data were processed

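RNA was extracted from skin and sequenced on an Illumina HiSeq instrument. The authors deposited raw counts for 27179 genes. Subread, DESeq2 1.18.1 and GRCm38 appear in the submitters' processing notes, with no role stated, and the strand setting is not given in the sources used here. A deposited table of scaled values of AA genes was not used for results, because 6 of its 24 columns matched another library. The 6 were columns of JAK1i, JAK3i or JAK2i (the JAK2 inhibitor of the series), each matching a library of another of these groups. Comparisons with JAK1i and JAK3i follow the labels of the deposited counts, and which labels are right was not tested. Symbols turned into dates (26) were restored, 855 genes had no symbol (at most 0.608% of counts), and 25275 IDs matched RefSeq.

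Counts of all 24 libraries in 7 groups were fitted with edgeR 4.0.16 (R 4.3.3; filterByExpr with a minimum count of 10 and a total of 15, TMM scaling, quasi-likelihood test, prior count 2), and p-values were adjusted by Benjamini-Hochberg over 17770 genes. Adjusted p-values and SEs in the text are from this fit, and CPM use TMM-scaled totals. The fit was tested on simulated data. The alternatives, which include DESeq2 1.42.0, other scalings and filters, other sets of libraries and leaving out single libraries, are given at the end.

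Lists (53) and members were chosen with earlier results of these data known. Genes named are those of the study, members of signalling lists, the 5 smallest p-values per list and members against a list's majority. The 10 largest changes in each direction are named too. They were ranked among called genes with a mean log2 CPM of at least 1 and no overlap between the groups. 44 of the 210 genes named fall outside this rule and were chosen after their values were seen, and some genes that the rule names are not reported here. With 3 libraries a group, replicates of a number did not vary together (correlations of 0.055, −0.038 and 0.089) and were not paired.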

Additional observations from a re-analysis of the deposited data

Results flagged for a closer look

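Ruxolitinib skin differed from skin after the other inhibitors by the direct test (edgeR quasi-likelihood test, adjusted p below 0.05): 66 genes against tofacitinib, 5800 against JAK1i and 6487 against JAK3i. Against tofacitinib at the same dose, Hamp2 was higher after ruxolitinib (log2 fold change 4.78), at 36.2, 37.4 and 41.9 CPM, against 2.55, 0.344 and 1.27 CPM after tofacitinib. Other genes higher after ruxolitinib were Gm53 (2.72), the homeobox genes Hoxb9 (2.48) and Hoxa9 (2.01), and Notum (2.03). Hoxb9 and Hoxa9 mark position along the body, and Hoxb9 measured 16.1, 13.4 and 12.0 CPM after ruxolitinib and 3.77, 1.97 and 1.65 CPM after tofacitinib. Genes lower after ruxolitinib were Thrsp (−2.59), a regulator of fat synthesis, Casr (−1.62), A530016L24Rik (−1.40), Acsm3 (−1.39) and the complement protease gene C1s1 (−1.37). Thrsp measured 51.0, 66.8 and 49.5 CPM after ruxolitinib and 153, 606 and 249 CPM after tofacitinib, where library 2 was the highest. By the direct test the adjusted p was 0.00114 for Hamp2 and 0.019 to 0.0481 for the other genes named here. With single libraries of these groups left out, 2 to 248 genes were called against tofacitinib.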

How the results depend on the processing

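Ruxolitinib against vehicle called 9042 genes. DESeq2 called 4287 higher and 4984 lower, and leaving out any 1 of the 6 libraries gave 3447 to 3742 higher and 4241 to 4496 lower. Leaving JAK1i library 3 out of the shared fit gave 5220 higher and 5220 lower. Scaling by library totals gave 5513 higher and 3612 lower, and totals without muscle and hair genes 5848 and 3608 (all-gene median 0.131, 61.8% higher). The fit of the 6 libraries alone called 5438 higher and 5463 lower. With a replicate block, the 18 posttreatment libraries gave 3870 higher and 4505 lower, against 3923 and 4596 without it. With the block 2 MHC class II genes were lower, against 1 without it, 2 fibroblast and matrix genes were higher, against 1, 1 basal epidermis gene was higher, against 2, and 1 epidermal protease gene was higher, against 0. In the 6 libraries the block gave 1 higher gene in the γc list, against 2. It also gave no higher cytotoxic gene, against 1, and 2 lower nerve genes, against 1. In these 2 fits no other list count moved by over 1.5 times with the block. Against tofacitinib (66 genes) DESeq2 called 299, the 18 libraries 14 and, with the replicate block, 19, and single libraries left out gave 2 to 248. Against JAK1i (5800 genes) the 2 groups alone called 4, and single libraries left out gave 3334 to 9493. The 6 libraries alone called 13 collagens lower, with the block also 13, and 6 fibroblast and matrix genes lower, with the block also 6, fewer than they called higher. The fit without JAK1i library 3 called 5 fibroblast and matrix genes lower, and totals without muscle and hair genes called 5 gp130 genes lower, again fewer than higher. The causes of these shifts were not tested. Of 53 list counts, each in the direction of most of its calls, 39 kept that direction and stayed within 1.5 times under every alternative run, and of 210 genes named 182 kept their call, with no direction turned. At 19296139 to 21858670 counts a library, genes of a few counts, such as Il27 or Lyg2 after ruxolitinib, have the widest counting error.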

Other observations

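Clock genes were unevenly changed. Of 17, 7 were higher and 3 lower after ruxolitinib, and the fit of the 6 libraries alone called 11 higher. Nr1d1, a repressor of the clock, measured 98.7, 88.0 and 79.3 CPM after ruxolitinib and 35.9, 39.5 and 38.9 CPM after vehicle (log2 fold change 1.22, SE 0.25), and Tef, a clock output factor, rose with 1.16. Bhlhe40, a clock repressor that immune cells also use, fell by 1.82, while Arntl, the core activator, stood at 58.1, 64.0 and 62.3 CPM after ruxolitinib and 54.3, 61.0 and 57.7 CPM after vehicle and did not pass.

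Of 19 immediate early and heat shock genes 8 were lower and 2 higher. Egr1, an early growth response factor, fell by 1.45 and Junb, a subunit of AP-1, fell by 1.15, whereas Fos did not pass (log2 fold change −0.32, 95% interval −1.34 to 0.70). In the complement list 7 of 24 fell, a share near the 27.2% over all genes tested, and 3 rose. Without ruxolitinib library 1, 4 fell, and the fit of the 6 libraries alone, like that without JAK1i library 3, called 11 lower. The members that rose include Cd55, which restrains complement on cell surfaces (log2 fold change 1.24, SE 0.14, adjusted p = 5.93e-07). Of 4 NKG2D ligands that could be tested 2 fell, H60c (−0.52) and Ulbp1 (−1.57), and H60c measured 28.1, 28.2 and 29.5 CPM after ruxolitinib and 38.7, 43.2 and 40.9 CPM after vehicle. Slc4a1, the anion exchanger of red blood cells, measured 0.140, 0.303 and 0.0485 CPM after ruxolitinib and 5.43, 5.62 and 5.68 CPM after vehicle, although the haemoglobin genes did not pass.

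A single library was taken before ruxolitinib, which allows no test. Its summed levels were 6253 CPM for the IFN-γ response, 769.9 CPM for T cell genes, 1001 CPM for hair shaft keratins, 2442 CPM for adipocyte genes and 16670 CPM for skeletal muscle genes. In the ruxolitinib libraries T cell genes summed to 312.0 to 331.4 CPM and adipocyte genes to 7929 to 8633 CPM, and in the vehicle libraries to 680.9 to 786.2 CPM and 2156 to 2419 CPM. On all 5 lists the library taken before treatment lay nearer to the vehicle libraries.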
